A study of Mus musculus with 7 samples.

Results

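The genes described here were 9 factors that set or keep the fate of the somatic cells of the gonad: Foxl2, Wt1, Gata6, Nr2f2, Sox9, Dmrt1, Lhx9, Emx2 and Cbx2. They were chosen by name from 21755 protein-coding genes of the autosomes and chromosome X, with earlier results of these data known. All 9 were found in the annotation. The binding of estrogen receptor beta (ERβ, the product of Esr2) was examined in the body of each gene and 100 kb on either side, a stretch called its territory in the following. The assay was ChIP-seq (chromatin immunoprecipitation and sequencing) on whole mouse ovary, in which fragments of chromatin held by an ERβ antibody (PPZ0506) are sequenced and compared with chromatin that was not immunoprecipitated (input). There were 3 ERβ ChIP libraries and 2 inputs, all from C57BL/6J ovaries labelled as endogenously expressing ERβ. Each ChIP replicate was a pool of 14 ovaries from 7 mice aged 4 to 16 weeks, and the stage of the estrous cycle was not selected. A signal from whole ovary cannot be ascribed to one cell type. Another 2 ChIP samples, from ovaries with deleted ERβ, were not analysed here, so a part of the signal that does not depend on ERβ could not be told apart from the rest. The paper reports that most of its own sites were found again when ChIP from knockout ovaries took the place of input. Whether this holds for the sites described here was not examined.

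The gonad begins as a bipotential primordium, and its supporting cells become granulosa cells in the ovary or Sertoli cells in the testis. FOXL2, a forkhead factor, keeps granulosa cells in their female fate, whereas SOX9 and DMRT1 direct and keep the Sertoli fate. WT1, LHX9, EMX2 and the Polycomb protein CBX2 are needed to form or pattern the early gonad, GATA6 acts with GATA4 in granulosa and other somatic cells, and NR2F2 (COUP-TFII) is an orphan nuclear receptor of interstitial and theca lineage cells. ERβ, which is found mainly in granulosa cells in the ovary, binds as a dimer to the estrogen response element (ERE), a palindrome of the half-sites GGTCA and TGACC with 3 bases between them.

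A site was a 200-bp window whose signal exceeded the average of both inputs by more than 4-fold in 2 or more ChIP libraries, where an input average under the genome mean was replaced by that mean. Passing windows at most 200 bp apart were counted as 1 site. The territories held 13 sites, with 3 each at Foxl2, Wt1 and Cbx2, 2 at Gata6, and 1 each at Dmrt1 and Emx2. Nr2f2, Sox9 and Lhx9 had none by this rule. Thus 6 of the 9 genes had a site, while 35.9% of all protein-coding genes had one in a territory made the same way. The genome held 4033 sites, and 0.0433% of all 200-bp windows passed. Per length, the territories held 6.37 sites per Mb over 2.04 Mb and the genome 1.53 sites per Mb. The latter is over the full length of the chromosomes, and the density in the territories of all protein-coding genes was not computed. Only 5.13% of protein-coding genes had as many sites as Foxl2, Wt1 or Cbx2 or more. These numbers describe the territories and were not tested, because the rule selects on the excess over input. The genes were also chosen with earlier results of these data known.

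The ranking of the 13 sites was led by a distal site of Foxl2 and by the promoter of Gata6. The plot of signal over the 9 territories shows where they lie.

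**Figure D1:**
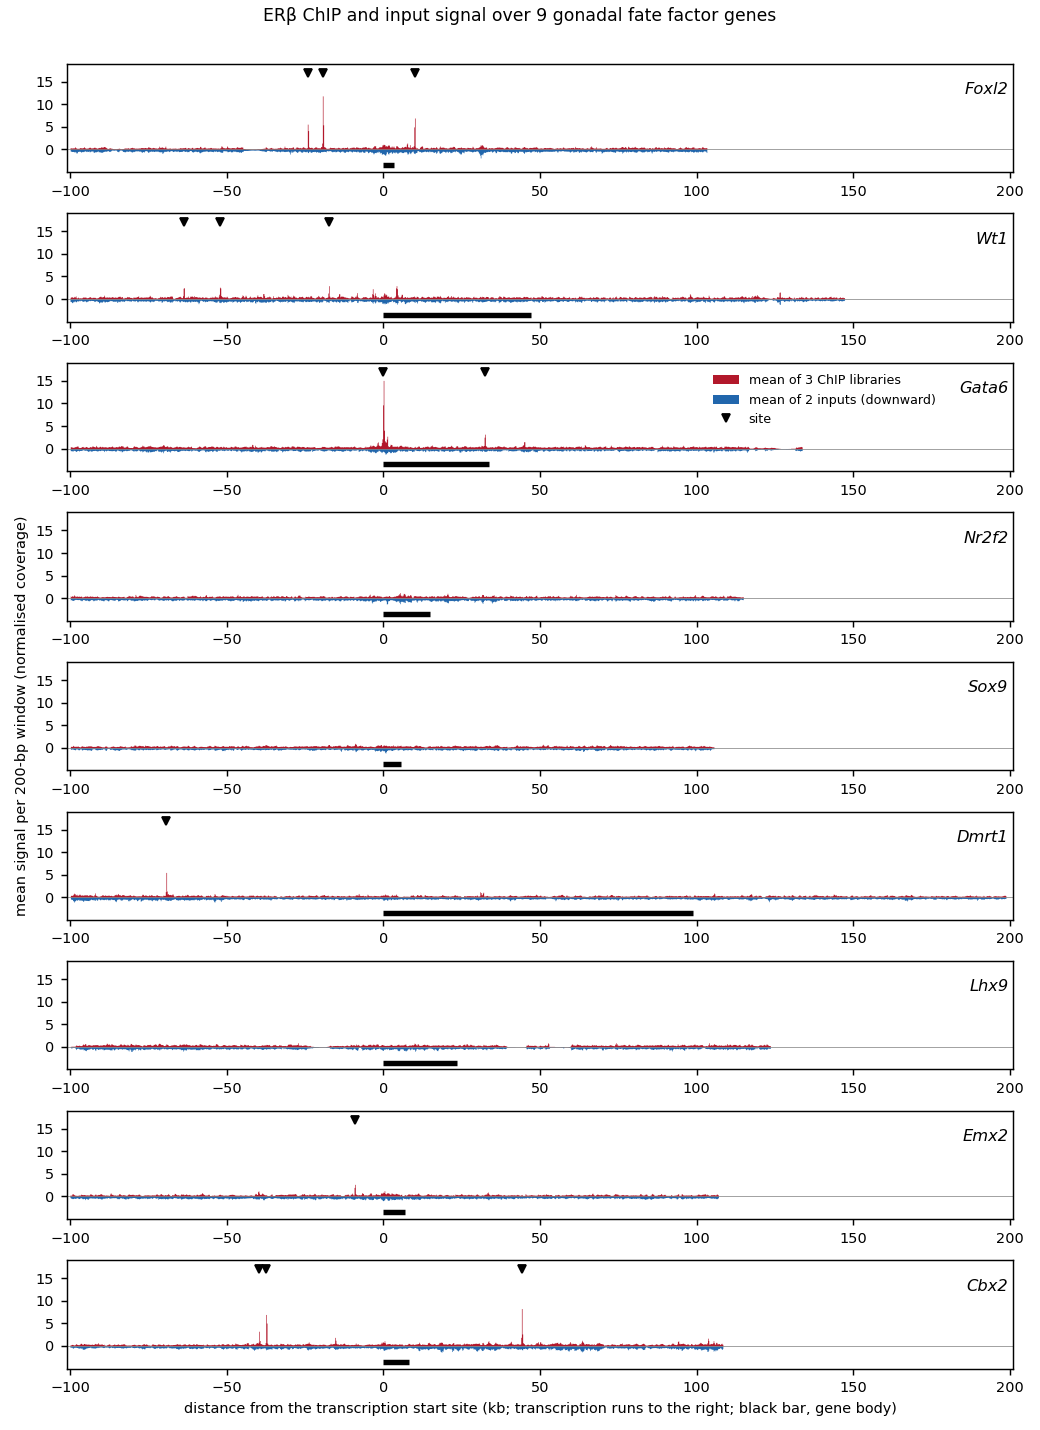
Mean signal (normalised coverage) in 200-bp windows against the distance from the transcription start site in kb, 1 panel per gene, all on the same scale; the mean of the 3 ChIP libraries is drawn upward in red, the mean of the 2 inputs downward in blue, the gene body as a black bar and the 13 sites as triangles. The tallest signals lie 19.3 kb upstream of Foxl2 and at the promoter of Gata6, and no triangle falls at Nr2f2, Sox9 or Lhx9.

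The Gata6 sites also held ERE matches, and their sequences are not reported here. The sequence is shown for 6 other sites, which carry the ERE matches or the nuclear receptor matches described below. Each is the 200 bp around the summit, the position of highest mean ChIP signal, read 5′ to 3′ on the plus strand of GRCm38 (mm10), which is also the strand of these 4 genes. In the first 5, capitals mark every ERE match, meaning a stretch in which no more than 2 of the 10 fixed bases differ. In the last, which had no such match, capitals mark the motif CAAGGTCA of the NR5A receptors (SF-1 and LRH-1) on the minus strand.
Foxl2 -19.3 kb, chr9:98935851-98936050: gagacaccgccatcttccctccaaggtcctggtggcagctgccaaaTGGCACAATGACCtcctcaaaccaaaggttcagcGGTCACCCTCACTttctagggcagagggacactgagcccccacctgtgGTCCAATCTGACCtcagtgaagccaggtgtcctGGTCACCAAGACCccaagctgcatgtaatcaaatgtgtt
Foxl2 -24.1 kb, chr9:98931081-98931280: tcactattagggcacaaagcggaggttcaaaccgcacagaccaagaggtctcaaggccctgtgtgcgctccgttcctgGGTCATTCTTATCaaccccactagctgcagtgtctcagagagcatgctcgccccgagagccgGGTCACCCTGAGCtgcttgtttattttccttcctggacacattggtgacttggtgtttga
Dmrt1 -69.3 kb, chr19:25436221-25436420: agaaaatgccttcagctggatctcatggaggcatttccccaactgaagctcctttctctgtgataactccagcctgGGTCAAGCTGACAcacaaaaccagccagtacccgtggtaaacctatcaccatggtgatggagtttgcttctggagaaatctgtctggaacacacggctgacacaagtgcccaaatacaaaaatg
Emx2 -9.14 kb, chr19:59449131-59449330: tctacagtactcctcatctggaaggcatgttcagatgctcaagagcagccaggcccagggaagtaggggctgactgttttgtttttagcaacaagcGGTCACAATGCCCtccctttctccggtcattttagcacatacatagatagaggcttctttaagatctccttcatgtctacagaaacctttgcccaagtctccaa
Cbx2 +44.2 kb, chr11:119067021-119067220: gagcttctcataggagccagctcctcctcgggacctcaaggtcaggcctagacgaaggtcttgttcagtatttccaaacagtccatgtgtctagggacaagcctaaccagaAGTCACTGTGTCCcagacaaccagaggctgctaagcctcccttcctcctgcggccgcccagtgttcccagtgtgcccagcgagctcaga
Cbx2 -37.4 kb, chr11:118985481-118985680: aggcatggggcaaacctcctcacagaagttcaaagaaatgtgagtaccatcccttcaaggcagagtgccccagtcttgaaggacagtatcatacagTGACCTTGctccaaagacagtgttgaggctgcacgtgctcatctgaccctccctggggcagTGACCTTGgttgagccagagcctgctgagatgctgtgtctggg

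Foxl2 (ENSMUSG00000050397.4, chr9:98955288-98958543, plus strand) is a compact gene, and none of its 3 sites touched it. The strongest lay 19.3 kb upstream of its transcription start site (TSS), at chr9:98935801-98936200, in intergenic sequence. In the strongest 200-bp window of this site the signal was 9.13, 13.4 and 13.1 in ChIP replicates 1, 2 and 3, and 0.508 and 0.439 in Inputs 1 and 2. All 3 ChIP libraries stood far above both inputs, with folds over the mean input of 19.3, 28.4 and 27.6 (mean 25.1 ± 5.04, SD, n = 3). It was the strongest of the 13 sites, and 1.93% of all sites in the genome had as large a mean fold. The closest TSS of any kind was that of Gm28266, 10.3 kb away, and the closest protein-coding TSS was that of Foxl2 itself.

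This site was also the one with the most ERE matches. Its 200 bp held 4 matches with at most 2 mismatches, the closest centred 13 bp from the summit, and the best of them had 1 mismatch and was centred 68 bp from it. Of all 4033 sites, 17 (0.422%) held 4 or more. In the printed sequence the matches lie on both sides of the summit, and 4 exact half-sites lie in it.

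The second Foxl2 site lay 24.1 kb upstream, at chr9:98931001-98931400, also intergenic. Its signal was 3.28, 7.17 and 6.37 in the ChIP libraries, against 0.788 and 0.496 in the inputs. The folds were 5.11, 11.2 and 9.93 (mean 8.74 ± 3.20), so ChIP replicate 1 was well below the other two here. The sequence held 2 ERE matches, one of them with 1 mismatch. The last Foxl2 site lay 9.93 kb downstream of the TSS, beyond the end of the gene, at chr9:98965001-98965400. There the signal was 6.28, 5.94 and 8.69 against 0.829 and 1.01, and the mean fold was 7.59 ± 1.64. It had no ERE match and no exact half-site, and the closest TSS of any kind was that of Foxl2os, the antisense transcript of Foxl2, 9.92 kb away.

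Gata6 (ENSMUSG00000005836.10, chr18:11052064-11085635, plus strand) was the only one of the 9 genes with a site at its promoter. The site spanned chr18:11051801-11052400, and its summit was 0.034 kb upstream of the TSS. That promoter is shared with 1010001N08Rik, a transcript that runs the other way, so the signal could not be assigned to one of them. In the strongest window the signal was 12.2, 16.3 and 16.8 in the ChIP libraries and 0.623 and 0.680 in the inputs. The folds, from 18.8 in replicate 1 to 25.8 in replicate 3 (mean 23.2 ± 3.85), were close to those of the strongest Foxl2 site, and the ranges over the replicates of both overlapped. The sequence around the summit held 1 ERE match with 2 mismatches, centred 16 bp from it, and 3 half-sites. The other Gata6 site lay 32.4 kb downstream of the TSS in a coding exon of Gata6, at chr18:11084201-11084600. It was weaker, with signal of 2.73, 3.37 and 3.48 against 0.694 and 0.499 and a mean fold of 5.36 ± 0.678, and it held 2 ERE matches, the closest 7 bp from its summit.

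Wt1 (ENSMUSG00000016458.14, chr2:105126529-105173616, plus strand) encodes a zinc finger factor, and its 3 sites were among the weakest. All lay upstream, and each passed the threshold in 2 of the 3 ChIP libraries. At 63.7 kb upstream, in intergenic sequence at chr2:105062801-105063000, the signal was 3.32, 2.48 and 1.76 against 0.571 and 0.350. The folds there were 7.22, 5.38 and 3.83, and here ChIP replicate 1 was the highest. At 17.5 kb upstream, in intron 1 of 6 of the antisense transcript Wt1os, the folds were 3.42, 4.28 and 4.71. The inputs differed there, with signal of 1.01 in Input 1 and 0.420 in Input 2. At 52.1 kb upstream the folds were 4.01, 4.08 and 3.10. Over Input 1 alone, Wt1 had 1 site in place of 3. No Wt1 site held an ERE match, and 1 of them, the site at 52.1 kb, held exact half-sites, of which it had 2. The closest protein-coding TSS to each Wt1 site was that of Gm11060.

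The Wt1 site at 52.1 kb was the closest to the threshold of all 13, its second-highest fold being 4.01. The window closest to passing, more than 1 kb from any site, was also at Wt1, 4.17 kb downstream of the TSS, with folds of 3.06, 4.34 and 3.62.

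Cbx2 (ENSMUSG00000025577.7, chr11:119022962-119031270, plus strand) encodes a subunit of the Polycomb repressive complex that reads methylated histone H3. Its territory held 3 sites, each over 4-fold in all 3 ChIP libraries. The strongest lay 44.2 kb downstream of the Cbx2 TSS at chr11:119067001-119067200, with signal of 7.22, 9.76 and 7.88 against 1.01 and 0.559. Its mean fold was 10.6 ± 1.68. The inputs differed here, and the mean fold was 8.20 over Input 1 alone and 14.8 over Input 2 alone. The other two lay 37.4 kb and 39.6 kb upstream of Cbx2, 2.61 kb and 4.86 kb from the TSS of Enpp7. At the former (chr11:118985401-118985800) the signal was 6.47, 7.92 and 6.56 against 1.02 and 0.682, a mean fold of 8.23 ± 0.958. At the latter the folds were 7.76, 10.4 and 4.75 (mean 7.64 ± 2.84), the widest spread of the 3 sites.

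The NR5A motif was found at Cbx2 only. The site 44.2 kb downstream had 1 match beside an ERE match with 2 mismatches, and the site 37.4 kb upstream had 2 matches and no ERE match. These 2 of 13 sites make 15.4%, and the motif was in 11.7% of all sites.

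Dmrt1 (ENSMUSG00000024837.15, chr19:25505618-25604329, plus strand), a DM domain factor, had 1 site, 69.3 kb upstream at chr19:25436201-25436400. The signal was 4.15, 5.58 and 6.78 in the ChIP libraries and 0.651 and 0.555 in the inputs. The folds were 6.88, 9.25 and 11.2 (mean 9.13 ± 2.18), and all 3 libraries passed. It was the only member site mostly in annotated repeat sequence, which made up 55.0% of the 200 bp. Its ERE match had 1 mismatch and was centred 17 bp from the summit. The closest protein-coding TSS was that of Kank1, 29.6 kb away, so that Dmrt1 was not the nearest gene.

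Emx2 (ENSMUSG00000043969.4, chr19:59458372-59465357, plus strand), a homeobox gene, had 1 site, 9.14 kb upstream at chr19:59449201-59449400, in intron 1 of 3 of the antisense transcript Emx2os. The signal was 1.68, 3.26 and 3.07 against 0.430 and 0.574. ChIP replicate 1 did not pass, with a fold of 3.36, while replicates 2 and 3 had 6.49 and 6.11. The ERE match here had 1 mismatch and was centred 3 bp from the summit, the shortest distance among the sites that held one.

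**Figure D2:**
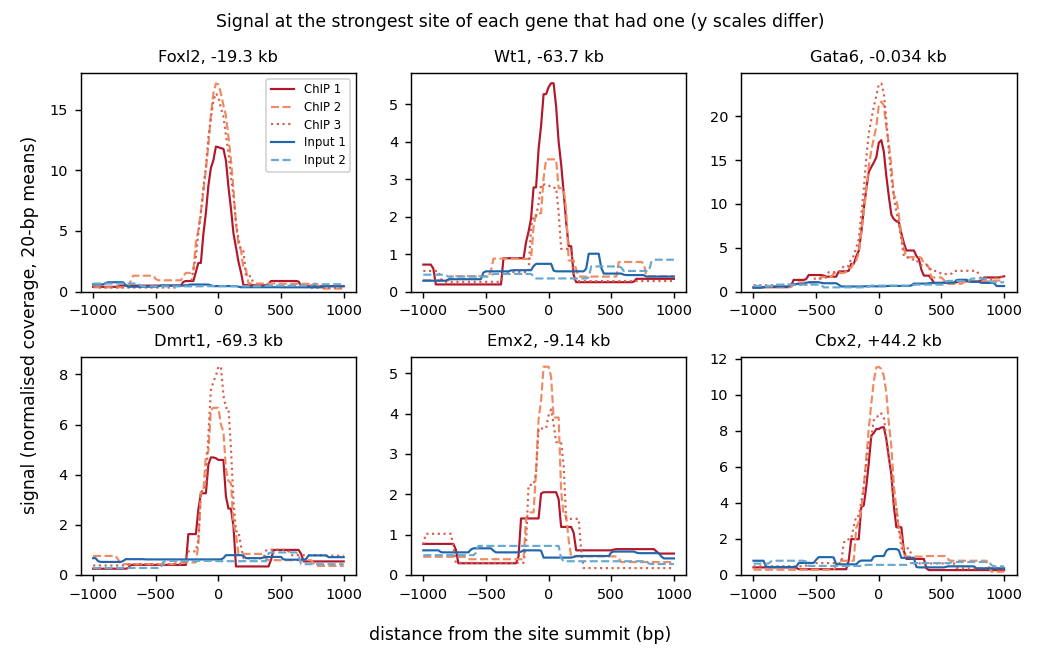
Signal (normalised coverage, 20-bp means) against the distance in bp from the summit of the strongest site of each of the 6 genes with a site, for the 3 ChIP libraries (red and orange lines) and the 2 inputs (blue lines), with a y scale of its own in each panel. The ChIP lines rise over the inputs around the summit at all 6 sites, ChIP replicate 1 being the highest at Wt1 and the lowest at the other 5.

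Nr2f2 (ENSMUSG00000030551.14, chr7:70351944-70366735, minus strand), Sox9 (ENSMUSG00000000567.5, chr11:112782224-112787760, plus strand) and Lhx9 (ENSMUSG00000019230.14, chr1:138825186-138848577, minus strand) had 0 windows over 4-fold in any single ChIP library. The window with the largest mean fold at Nr2f2 was 46.6 kb upstream, with folds of 2.94, 2.62 and 0.911 (mean 2.16 ± 1.09). At Sox9 it was 17.5 kb upstream, with 0.986, 3.38 and 1.46 (mean 1.94 ± 1.27). At Lhx9 it was 52.5 kb downstream, with 0.559, 3.69 and 3.14 (mean 2.46 ± 1.67). In each of these windows at least 1 ChIP library was below the mean input, so the libraries did not separate from it. Part of the Lhx9 territory had little signal in any library, inputs included, and 208 windows of 1 kb in its 223 kb reached the mean signal of 0.1 needed for the test described below. For Nr2f2 the paper differs: it lists this gene among nuclear receptor genes with ERβ-binding sites. The paper called its sites in another way and linked each to the closest TSS, not to a territory. Where its Nr2f2 sites lie was not examined here.

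The stretch from 10 to 15 kb upstream of Sox9 was looked at separately, because a testis-specific enhancer of Sox9 is known to lie in it. Sequence more than 100 kb from Sox9 was not examined. The mean signal over the 10 to 15 kb stretch was 0.381, 0.438 and 0.479 in the ChIP libraries and 0.407 and 0.426 in the inputs, and the groups overlapped. Its strongest window, 14.1 kb upstream, had folds of 1.01, 2.33 and 1.40 (mean 1.58 ± 0.681). No excess over input was detectable there in these libraries, whose depth is unknown from the files.

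**Figure D3:**
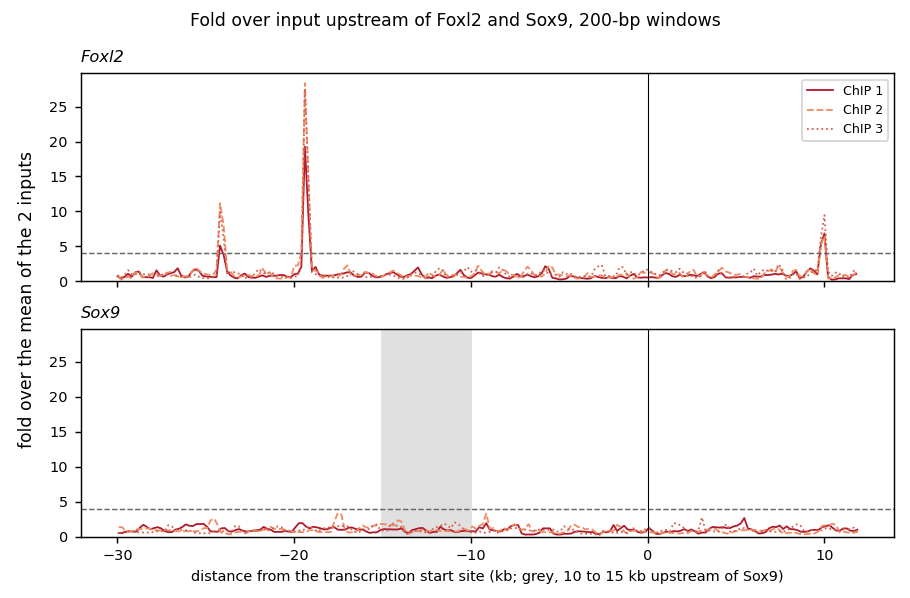
Fold over the mean of the 2 inputs in 200-bp windows against the distance from the transcription start site in kb, for Foxl2 (top) and Sox9 (bottom) on the same scale; lines are the 3 ChIP libraries, the dashed line marks 4-fold and the grey band 10 to 15 kb upstream of Sox9. The 3 Foxl2 sites rise above the dashed line, and no window of Sox9 reaches it.

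Across the 13 sites the mean fold ran from 3.73 to 25.1 with a median of 7.64, and the median over all 4033 sites was 6.16. Of the 13, 9 were over 4-fold in all 3 ChIP libraries (69.2%, against 67.2% of all sites), and the other 4 were the 3 Wt1 sites and the Emx2 site. ChIP replicate 1 gave the lowest of the 3 folds at 9 of the 13 sites and at 62.8% of all sites. ChIP replicate 1 and Input 1 also carried another style of track name than the other 3 libraries, a difference whose meaning is not given in the sources used here. With this difference as a term in the limma test described below, 11 windows were higher in place of 12, the Emx2 window (limma adjusted p = 0.0701) and the Gata6 promoter (0.188) no longer passing. With each ChIP library set over the input of its own track-name style, there were 12 sites, and the same 6 genes had one.

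**Figure D4:**
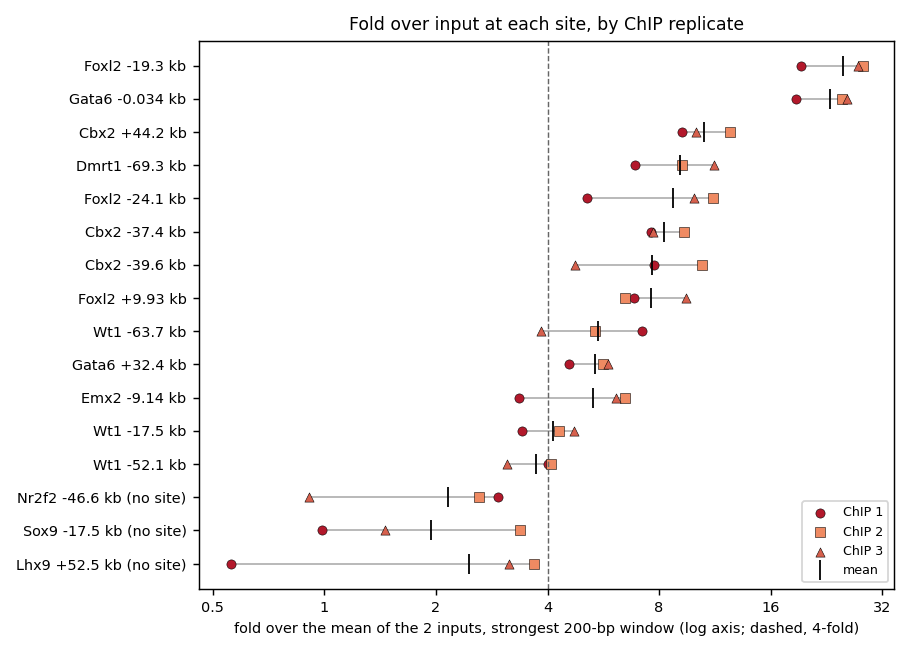
Fold over the mean of the 2 inputs (log axis) in the strongest 200-bp window of each of the 13 sites and, for the 3 genes with no site, of their strongest window; points are the 3 ChIP replicates, the bar is their mean and the dashed line marks 4-fold. The strongest Foxl2 and Gata6 sites lie to the right of all others in every replicate, and the 3 windows without a site lie to the left of the dashed line in every replicate.

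Most of the sites were far from the start of the gene they were counted for. Of the 13, 10 were upstream of its TSS and 3 downstream, and 3 were within 10 kb of it. By location, 9 were intergenic, 2 intronic, 1 in a promoter and 1 in a coding exon. For 6 of the 13, at Foxl2, Gata6 and Emx2, the gene itself held the closest protein-coding TSS.

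An ERE match with at most 2 mismatches was present in 7 of the 13 sites (53.8%), compared with 69.7% of all sites and 6.72% of 23463 windows of 200 bp sampled evenly over the genome. Sampled windows were kept if they had no unknown base and a mean input of at least 0.5 times its genome mean. In all 7 sites with a match the closest one was centred within 25 bp of the summit. With at most 1 mismatch there were 4 sites (30.8%, against 34.9% of all sites and 0.541% of genome windows), namely both upstream sites of Foxl2 and the sites of Dmrt1 and Emx2. A perfect ERE was in 0 of the 13 and in 6.99% of all sites. The half-site GGTCA, which is contained in an ERE and in the NR5A motif, was found on either strand in 9 of the 13 sites, 86.3% of all sites and 26.2% of genome windows. The GATA motif (AGATAA or TGATAA, both strands) was in 3 sites, one each at Foxl2, Wt1 and Dmrt1, and in 29.3% of all sites and 23.9% of genome windows. The AP-1 motif (TGACTCA or TGAGTCA) and the forkhead motif (TGTTTAC), on both strands, were in 0 of the 13 and in 6.65% and 5.23% of all sites. A match describes the letters in the window and is not evidence of which factor was bound.

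The excess over input was then tested in all 1-kb windows of the genome. ChIP and input were compared by limma on log2(signal + 0.5), and p-values were adjusted by the Benjamini-Hochberg method over 2430659 windows. In the territories, 12 of 2022 windows were higher in ChIP (0.593%, adjusted p under 0.05), and 0.0957% of all windows were. None of the 2022 was lower by the same limma test, for which the share over all windows was 0.00267%. At an unadjusted limma p under 0.05, 32 of the 2022 were higher and 99 lower. Over all 2430659 windows, 46256 were higher and 80924 lower at that level, so lower windows were the more frequent there too. Foxl2 had 4 higher windows, Gata6 3, Cbx2 2, and Wt1, Dmrt1 and Emx2 1 each. Nr2f2, Sox9 and Lhx9 had 0 by limma, with 2, 2 and 0 windows higher and 6, 11 and 5 lower at an unadjusted p under 0.05. Of the 12 windows 10 held the summit of a site, and the other 2, at Foxl2 and at Gata6, held the edge of a site whose summit lay in the next window. The test and the site rule used the same libraries and the same contrast, so the overlap is a description. The share of higher windows in the territories is also a description, for genes chosen with earlier results known.

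The smallest p was at Foxl2 and the largest change at Gata6. The Foxl2 window 19.8 kb upstream had signal of 2.30, 3.57 and 3.07 in ChIP and 0.529 and 0.506 in input (log2 fold change 1.76, SE 0.21, limma adjusted p = 2.16e-06), less than in the 200-bp window because the site fills only a part of 1 kb. The Gata6 window that held the summit of the promoter site was centred 0.436 kb downstream of the TSS, so most of it lay inside the gene. It was higher by 1.86 on the log2 scale (SE 0.24, limma adjusted p = 8.92e-06). The adjacent window upstream of the TSS was higher by 1.53 (SE 0.21, limma adjusted p = 3.11e-05). At Cbx2 the windows with the sites at 37.4 kb upstream and 44.2 kb downstream gave 1.49 and 1.37 (limma adjusted p = 3.79e-05 and 0.000179). The Foxl2 sites 24.1 kb upstream and 9.93 kb downstream gave 1.38 and 1.32 (limma adjusted p = 0.000197 and 0.000499), Dmrt1 1.07 (0.00415) and the exonic Gata6 site 0.91 (0.0138). Wt1 and Emx2 were closest to the threshold, with 0.85 (limma adjusted p = 0.0282) and 0.79 (0.0425). The windows of the other two Wt1 sites and of the Cbx2 site 39.6 kb upstream did not pass, with log2 fold changes of 0.65, 0.74 and 0.79 (limma adjusted p = 0.224, 0.232 and 0.103). Without ChIP replicate 3, the Wt1 window 52 kb upstream passed (limma adjusted p = 0.0388), as did the Cbx2 window (0.0186). Leaving out 1 library also ended calls. Without ChIP replicate 2 the log2 fold changes at Wt1, Emx2, Dmrt1 and the exonic Gata6 site were 0.84, 0.73, 1.08 and 0.88, and the limma adjusted p were 0.248, 0.346, 0.0812 and 0.169. Wt1 was also lost without ChIP replicate 1 (log2 fold change 0.72, limma adjusted p = 0.146). With a single input left, the spread came from the ChIP libraries alone, and the lone input was assumed to vary as they do. The same 4 log2 fold changes were then 0.93, 0.83, 1.09 and 0.98 without Input 1 (limma adjusted p = 0.324, 0.948, 0.160 and 0.313) and 0.76, 0.76, 1.05 and 0.84 without Input 2 (limma adjusted p = 1, 1, 0.294 and 1). The 6 other windows with a site that passed, at Foxl2, the Gata6 promoter site and Cbx2, stayed under 0.05 with any 1 library left out. With no filter on low signal none of the 6 passed, the limma adjusted p running from 0.0689 to 0.895.

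For the 3 genes without a site, the window with the smallest p had less signal in ChIP than in input in each case. At Nr2f2, 1.24 kb inside the gene, the signal was 0.567, 0.385 and 0.376 in ChIP and 0.965 and 0.736 in input (log2 fold change -0.52, SE 0.16, limma adjusted p = 0.618). At Sox9 and Lhx9 the log2 fold changes were -0.38 and -0.43 (limma adjusted p = 0.780 and 0.899). The Cbx2 territory had the most windows lower at an unadjusted p under 0.05, 27 of 208 (80924 of 2430659 over the genome). Its mean signal was 0.368, 0.444 and 0.540 in the ChIP libraries and 0.536 and 0.518 in the inputs, so that ChIP replicate 1 was lowest there, and 0 windows passed after adjustment.

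At promoters, taken from 1 kb upstream to 100 bp downstream of the TSS, Gata6 stood alone among the 9 genes. Its promoter signal was 4.40, 5.05 and 5.73 in the ChIP libraries and 0.716 and 0.646 in the inputs. The groups did not overlap, and the log2 fold change was 2.23 (SE 0.44, limma adjusted p = 0.00330 over 21064 promoters). Of all protein-coding promoters, 0.076% (16) were higher by this test, a number that moved with the setting, to 173 under median scaling, 80 without ChIP replicate 1, 0 without ChIP replicate 2 and 199 without ChIP replicate 3. The call was lost in 6 of 11 other settings, among them leaving out ChIP replicate 2, Input 1 or Input 2, while the log2 fold change stayed between 1.85 and 2.72. The other 8 promoters had signal between 0.271 and 1.12 in ChIP and between 0.380 and 0.955 in input. Their log2 fold changes ran from -0.26 at Lhx9 to 0.14 at Cbx2, with limma adjusted p from 0.491 to 0.954. The median over all promoters was -0.13 and became 0.02 when libraries were scaled by their medians, and the sign changed in at least 1 of 11 other settings for 6 of these 8 promoters, all but Nr2f2 and Lhx9.

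**Figure D5:**
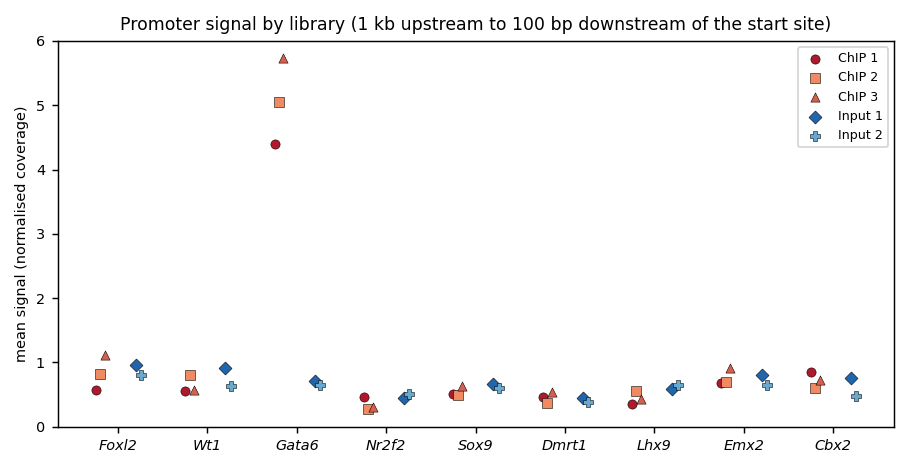
Mean signal (normalised coverage) from 1 kb upstream to 100 bp downstream of the transcription start site for each of the 9 genes; points are single libraries, 3 ChIP replicates in red and orange and 2 inputs in blue. At Gata6 the ChIP libraries sit between 4.40 and 5.73 and the inputs below 0.72, and at the other 8 genes all 5 libraries sit at or below 1.12.

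As a reference, 24 other genes of gonadal fate, also chosen with earlier results known, were read in the same way. A site was found for 11 of them, 23 sites in all, beside the 35.9% of protein-coding genes with one. The 3 largest folds were at Gata4, the partner of Gata6 in somatic cells (28.7, 33.9 and 40.5, mean 34.4 ± 5.91), at Nr5a1, which encodes SF-1 (19.7, 24.5 and 28.4, mean 24.2 ± 4.37), and at Wnt4, a signal of the female pathway (20.3, 24.9 and 23.9, mean 23.04 ± 2.42). The strongest Foxl2 and Gata6 sites were within the range of these 3.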

How the data were processed

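Tracks of 5 libraries (3 ERβ ChIP and 2 inputs from mouse ovary) were analysed, with group and replicate number as in the sample titles. Per the study's methods, the authors aligned single reads with STAR to GRCm38 (mm10), kept unique reads and used HOMER; versions, duplicate handling and fragment length of the tracks are not given in the sources used here. The deposited values are signal (coverage). Its sum was alike in all libraries, 928 to 948 M of signal times length, as if scaled to a common total, but the scaling is not described in the sources used here. They hold no read counts, so depth could not be read from them and no counting interval was made. The paper states a range of aligned reads per ChIP sample, which was not used here. The autosomes and chromosome X (99.7% to 99.8% of the signal) were used.

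Signal was averaged with numpy 2.4.6 in windows of 200 bp and 1 kb. Windows of 1 kb and promoters with mean signal of at least 0.1 were tested with limma 3.58.1 (R 4.3.3; lmFit, eBayes with trend) on log2(signal + 0.5), a scale that understates changes of low signal. The script was tested on simulated data. Gene models were from GENCODE vM21, which holds 139486 transcripts of the chromosomes used, and sequence came from the RefSeq copy of GRCm38. No tissue marker can be read from these tracks. Leaving out replicates, other thresholds, inputs, scalings and pseudocounts were tried as alternatives. Where nothing in the labels ties libraries to separate animals, p-values measure only the spread between these libraries; the ChIP replicates were separate pools per the study's methods.

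The 9 genes, the 24 reference genes and the tests were chosen with earlier results of these data known. Named were all 9 genes, every site of a gene with at most 3 sites, the strongest window of a gene with none, the limma windows that held a site or had the smallest p of a gene, the 3 largest folds among the reference genes, and the stretch 10 to 15 kb upstream of Sox9. The ChIP samples from ovaries without ERβ were not analysed here.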

Additional observations from a re-analysis of the deposited data

How the results depend on the processing

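Nr2f2, Sox9 and Lhx9 had 0 sites in the 12 other ways of calling sites, none of which reached beyond 100 kb. The number of the 9 genes with a site stayed between 4 and 6. The 13 sites became 5 when over 8-fold was required. They numbered 9 to 11 when 1 ChIP library was left out, a stricter rule because both remaining libraries then had to pass. Wt1 and Emx2 had no site when over 8-fold or all 3 ChIP libraries were required or without ChIP replicate 2, Emx2 none without ChIP replicate 3, and Dmrt1 none with 50 kb on either side. The ERE count of 7 fell to 4 with at most 1 mismatch and to 0 with none, and was 7 in 400 bp.

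The 12 higher windows became 0 with no filter on low signal, and 7 to 14 with 1 library left out, 7 being the number without Input replicate 1. Lower windows numbered 3 with the replicate block and 0 to 2 with 1 library left out, 2 being the number without ChIP replicate 3. The Gata6 promoter call was absent (0 of 9) with pseudocount 1, no filter, or the track-name group as a term (added after seeing the data), and 0 to 1 were called with 1 library left out. The other 8 promoters were called under none of these settings. Nr2f2 and Lhx9 stayed negative in the 11 alternatives, and the direction of the other 6 changed in some. Under median scaling the log2 fold changes were 0.12 at Foxl2, 0.037 at Wt1 and 0.054 at Sox9. Under the replicate block they were -0.051 at Emx2 and -5.28e-05 at Dmrt1, the same values as without ChIP replicate 3. That library had no input of its number, so under the block it added nothing to the log2 fold change. With 1 library left out they ran from -0.21 to 0.087 at Foxl2, -0.31 to 0.0076 at Wt1, -5.28e-05 to 0.13 at Dmrt1, -0.057 to 0.12 at Emx2 and -0.045 to 0.32 at Cbx2. The cause of these changes was not tested.

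The titles number ChIP and input alike, but nothing says that a number marks a shared pool. The correlation of deviations from the group means over 1-kb windows was 0.04 for the pair numbered 1 and -0.01 for the pair numbered 2. With 2 inputs their deviations are exact opposites, so these values can neither show nor exclude a shared pool. As no label ties the pairs, the block was not used in the main test. Under the replicate block 3427 windows of the genome were higher and 3207 lower, against 2326 and 65 without it, and 94 promoters were higher and 1083 lower, against 16 and 5. The log2 fold changes of that fit rested on the libraries numbered 1 and 2 alone. Depth, which could not be read from the tracks, limits every statement on signal that was not found. Also, 2 inputs give little knowledge of their spread.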
